A study of Mus musculus with 72 samples.

Results

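Whole-blood transcript levels of control mice were compared between a second and a first blood collection, with no lead (Pb) given to either group. The comparison covers the arrays whose titles place them in the control group, 7 taken after recovery and 7 taken after exposure, and these 14 are part of a series of 72. The mice were female Balb/c, 9 weeks old when the study began, in dose groups of 15. Control mice drank water with 0 µg/mL Pb. The control recovery group came from 7 control mice bled from the submandibular vein when all mice had been on Pb-free water for 2 weeks. The control exposure group came from 7 of the control mice bled 2 weeks earlier, so the names recovery and exposure mark the phase of the study and not a treatment of these animals. The recovery mice were thus 2 weeks older, and the labels do not say whether they had been bled before. Pb-treated mice of the same series, used here for comparison, drank 5 µg/mL (low Pb, 15 recovery and 15 exposure arrays) or 50 µg/mL (high Pb, 13 recovery and 15 exposure arrays) for the first 2 weeks, and all of them were bled at the first collection. The blood was stabilised in RNAprotect tubes and depleted of globin transcripts before labelling.

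Blood RNA of mice is a mixture of the transcripts of red cells that still carry RNA (reticulocytes), platelets, B and T lymphocytes, natural killer (NK) cells, monocytes and granulocytes. Reticulocytes and platelets have no nucleus and hold RNA made earlier in their bone marrow precursors, whereas leukocytes go on transcribing. Transcript levels of whole blood therefore change when the share of a cell type changes as well as when a cell changes its transcription, and in these bulk samples fewer cells of a type cannot be told apart from less RNA per cell.

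Levels are deposited log2 values from robust multi-array averaging (RMA), and a difference of 1 on this scale is a doubling of signal. Differences are recovery minus exposure, given ± SE from limma, and a gene was called when its Benjamini-Hochberg adjusted p was under 0.05 over 12588 tested genes. Array medians of the 14 control arrays lay between 4.06 and 4.2. Arrays correlated at a median of 0.992 within control recovery, 0.991 within control exposure and 0.985 between the groups. Markers of B cells, T cells, NK cells, monocytes, neutrophils, platelets and reticulocytes were all measured, which matches the label of peripheral blood. Of 20 genes chosen to mark skin, skeletal muscle or salivary gland of the face, the tissues around the bleeding site, 11 did not pass the filter on dim probe sets, and the mean level of the other 9 was 4.23 to 4.82 in control recovery and 4.32 to 5.01 in control exposure. A measure of RNA or labelling quality differed between the groups. The signal of the 3′ minus the 5′ control probe sets was 0.909 ± 0.122 for Gapdh in control recovery against 0.542 ± 0.125 in control exposure, and for Actb it was 0.68 ± 0.1 in control recovery against 0.369 ± 0.11 in control exposure (SD, n = 7 each; exact permutation test, two-sided, adjusted p = 0.00408 for both over 7 array measures). The same shift was present in the Pb groups, where Gapdh averaged 0.925 in low-Pb recovery against 0.534 in low-Pb exposure, and 0.845 in high-Pb recovery against 0.564 in high-Pb exposure. Its part in the results was not tested directly. With this measure as a covariate 4489 genes were called, of which 3396 were called without it.

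Control blood differed broadly between the collections. Of 12588 genes, 4543 (36.1%) were called, 2833 higher (22.5%) and 1710 lower (13.6%) in control recovery than in control exposure, and 5833 had an unadjusted p under 0.05. Most of these differences were small: 436 genes were higher and 287 lower by at least 1.5-fold, and 42 were higher and 20 lower by at least 2-fold. The median difference over all genes was -0.012. All 7 recovery arrays lay above every exposure array for 540 genes (4.29%) and below every exposure array for 242 genes (1.92%). The balance of directions depended on scaling, with 2498 higher and 2486 lower after a further quantile normalization and 2416 higher and 2494 lower after cyclic loess. With the mean levels of 7 blood cell marker lists as covariates 1156 genes were called, of which 860 were among the 4543. These covariates hold list members themselves, and the genes of those lists shrink by construction. Some of the list means also differed between the groups, so calls of genes outside the lists can be lost as well. The part of cell shares in this drop was not tested. These samples are separate blood draws, and no other replication is stated. Each gene's p-value rests on a spread shared by all 72 arrays in 6 groups, Pb-treated mice included. The low-Pb dose group of 15 mice gave 15 arrays at each collection, and all arrays were treated as independent. With only the 14 control arrays fitted, 3833 genes were called, 3718 of them among the 4543.

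**Figure D1:**
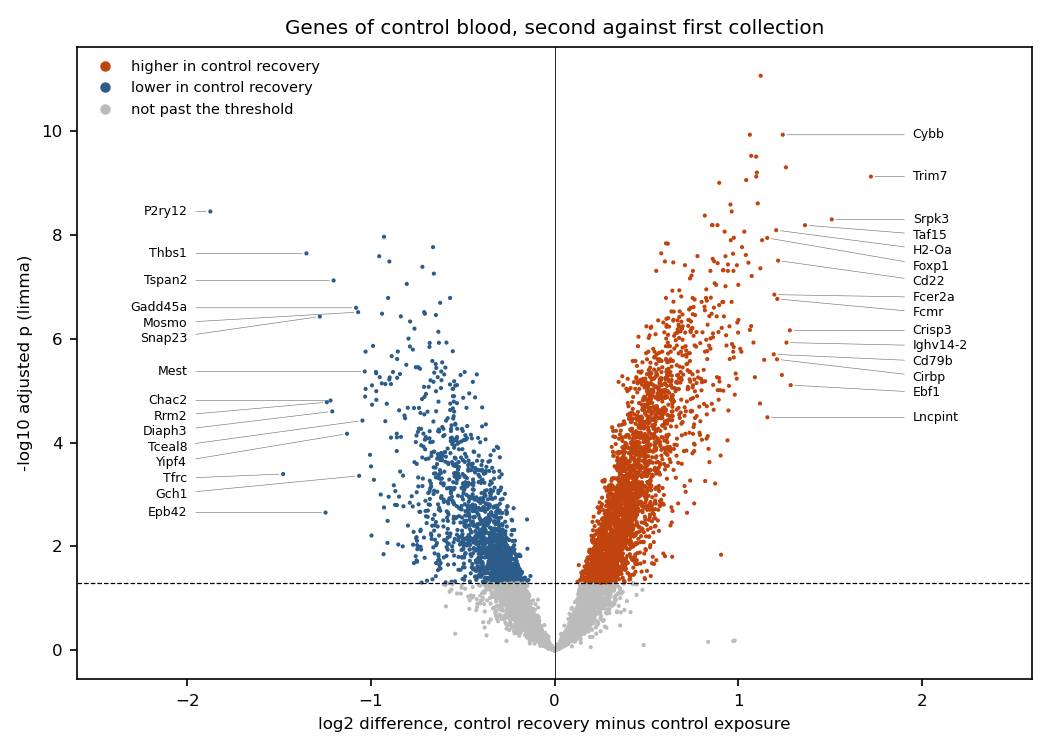
Each point is a gene, with its log2 difference, control recovery minus control exposure, on the x axis and -log10 of its limma adjusted p on the y axis. The dashed line marks an adjusted p of 0.05; the 15 named genes on each side have the highest and the lowest called differences, with Trim7 at 1.72 and P2ry12 at -1.88 at the ends.

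Among the 15 genes with the highest differences, 5 belonged to the B cell list, next to genes of antigen presentation, the phagocyte oxidase and RNA binding. Trim7, which encodes a tripartite-motif ubiquitin ligase, had levels of 6.39 to 7.57 (median 6.87) in control recovery, against 4.15 to 6.13 (median 4.99) in control exposure. The groups did not overlap, and the difference of 1.72 ± 0.20, a 3.3-fold higher signal, had an adjusted p of 7.61e-10. Srpk3, a kinase of SR splicing proteins, had levels of 8.67 to 9.55 (median 8.78) in control recovery, against 6.45 to 8.43 (median 7.38) in control exposure, again without overlap (1.51 ± 0.19, adjusted p = 5.09e-09). Its dimmer probe sets rose too, by 0.96 and 0.63. Taf15, an RNA-binding protein of the FET family, was at 6.45 to 7.17 (median 6.80) in control recovery and at 4.91 to 5.86 (median 5.52) in control exposure, a difference of 1.36 ± 0.17 (adjusted p = 6.56e-09).

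Cirbp, an RNA-binding protein induced by mild cold, rose by 1.21 ± 0.20. Its levels were 6.45 to 7.29 (median 6.84) in control recovery, against 5.05 to 6.61 (median 5.49) in control exposure, so 6 of 7 recovery arrays lay above all exposure arrays. The transcription factor gene Foxp1 rose by 1.16 ± 0.15 (adjusted p = 1.15e-08) without overlap, and its 7 other probe sets differed by 0.21 to 1.04. Lncpint, a long non-coding RNA, rose by 1.16 ± 0.22 (adjusted p = 3.27e-05), with levels of 5.08 to 6.26 in control recovery and 3.90 to 4.92 in control exposure. Crisp3, a secreted cysteine-rich protein, rose by 1.28 ± 0.20 on a dim probe set, at 3.71 to 4.50 in control recovery and 1.77 to 3.89 in control exposure. The remaining genes of this group, Ebf1, Ighv14-2, Cybb, Cd22, Fcmr, H2-Oa, Fcer2a and Cd79b, belong to B cells, antigen presentation or phagocytes and are described with those lists.

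At the other end, the 15 lowest differences held platelet, red cell precursor, cell division and stress genes. P2ry12, the platelet ADP receptor that clopidogrel blocks, was at 6.98 to 8.18 (median 7.82) in control recovery and at 8.78 to 10.23 (median 9.55) in control exposure. This was the lowest difference of all named genes, -1.88 ± 0.23 or 3.67-fold lower (adjusted p = 3.58e-09), and no recovery array reached the exposure range. Snap23, a membrane fusion protein of the secretory machinery, was at 7.73 to 8.77 (median 8.17) in control recovery against 9.04 to 9.93 (median 9.55) in control exposure (-1.28 ± 0.19, adjusted p = 3.76e-07). Gadd45a, a stress gene induced by DNA damage, was at 6.89 to 7.74 (median 7.25) in control recovery against 8.14 to 8.70 (median 8.32) in control exposure (-1.08 ± 0.16, adjusted p = 2.55e-07). Neither gene overlapped between the groups.

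Chac2, an enzyme that degrades glutathione, fell by 1.22 on the log2 scale, Diaph3, an actin-nucleating formin, by 1.21, the tetraspanin gene Tspan2 by 1.20, Mosmo, a modulator of Smoothened, by 1.07, and the imprinted gene Mest by 1.03. Each of these had all 7 recovery arrays below the exposure range, and adjusted p-values lay between 7.59e-08 and 2.52e-05. A dimmer probe set of Mosmo gave -0.13 and was not called. Gch1, the first enzyme of tetrahydrobiopterin synthesis, fell by 1.06 (adjusted p = 0.000437) and Tceal8 by 1.05 (3.78e-05), both without overlap. Yipf4, a Golgi membrane protein, fell by 1.13 with 6 of 7 arrays below the exposure range, and its 3 measured probe sets disagreed: a second gave -0.90 and the dimmest 0.34, both called. Tfrc, Thbs1, Epb42 and Rrm2 complete this group and are described below.

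**Figure D2:**
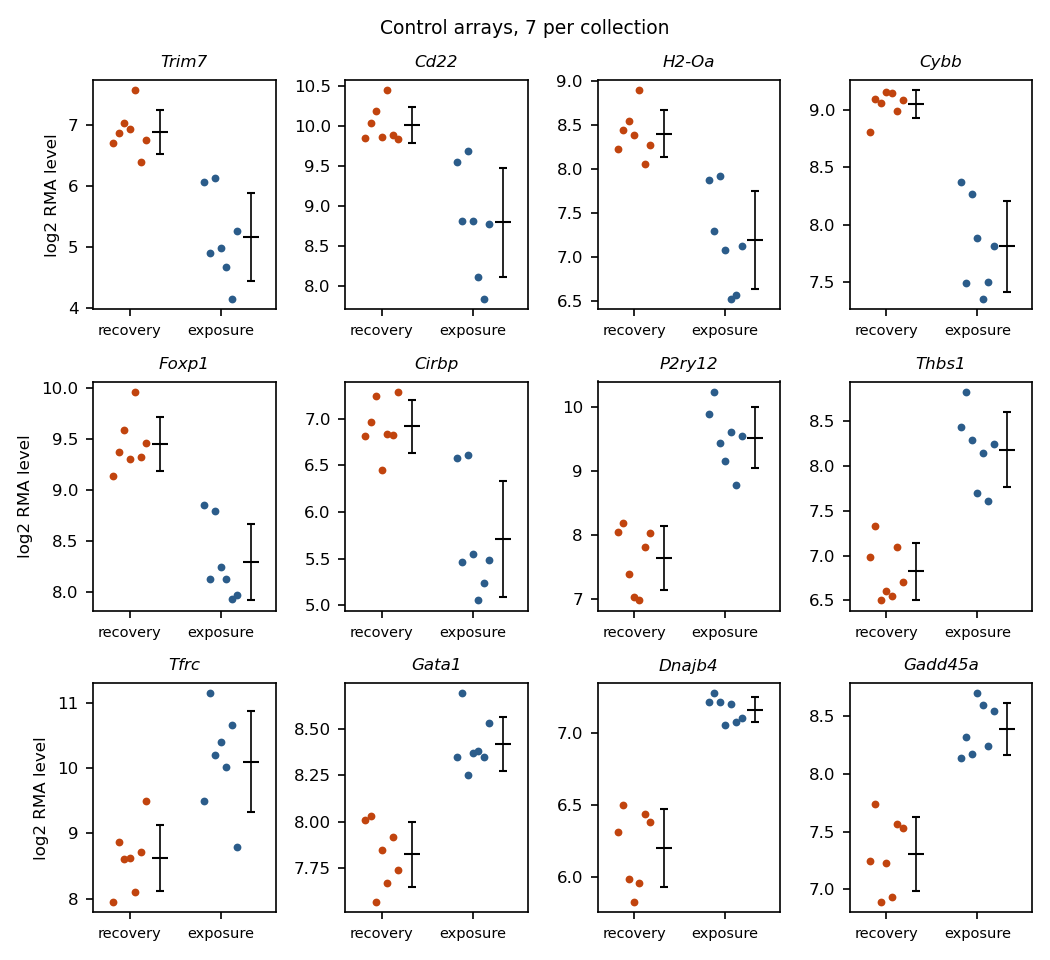
Log2 RMA levels of 12 genes in the 7 control recovery arrays (left, red) and the 7 control exposure arrays (right, blue), each point an array and the bar the mean ± SD. Recovery lies wholly above exposure for Trim7, Cd22, H2-Oa, Cybb and Foxp1, and wholly below it for P2ry12, Thbs1, Gata1, Dnajb4 and Gadd45a, while Cirbp and Tfrc overlap.

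B cells are the antibody-forming lymphocytes, and all 24 measured B cell markers were called higher in control recovery, at a median difference of 0.82, where 22.5% of all genes were called higher. Cd22, an inhibitory receptor that binds sialic acid, was at 9.84 to 10.44 (median 9.88) in control recovery and at 7.84 to 9.69 (median 8.81) in control exposure (1.22 ± 0.16, adjusted p = 3.15e-08). Fcmr, the Fc receptor for IgM, was at 10.83 to 11.42 (median 10.93) in control recovery against 8.81 to 10.76 (median 9.80) in control exposure (1.21 ± 0.17, 1.72e-07). Neither overlapped between the groups, and neither did Fcer2a, the low-affinity IgE receptor CD23, at 9.13 to 9.96 in control recovery and 7.26 to 9.12 in control exposure (1.20 ± 0.17). In Fcer2a 1 recovery array stood above the other 6, which reached 9.46.

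Genes of the antigen receptor and of lineage control followed. Cd79b and Cd79a, the signalling chains of the B cell receptor, differed by 1.19 ± 0.19 and 1.09, although only 2 recovery arrays of Cd79b lay above all exposure arrays. The immunoglobulin segment gene Ighv14-2 differed by 1.26 ± 0.20 and Ighm, the IgM heavy chain, by 0.55. Of the transcription factors, Ebf1 was at 6.25 to 7.52 (median 6.45) in control recovery and at 4.22 to 6.55 (median 5.29) in control exposure (1.29 ± 0.23, adjusted p = 7.85e-06), and Pax5 differed by 0.91. The tyrosine kinase gene Blk differed by 1.07 ± 0.16 (5.75e-07), and Ralgps2, at 0.41, was the lowest of the list. Averaged over the list, B cell levels were 8.62 to 9.24 (median 8.82) in control recovery and 7.03 to 8.83 (median 7.98) in control exposure. The exposure arrays thus spread much more widely than the recovery arrays, and exposure replicates 1 and 3, at 8.769 and 8.829, lay within the recovery range. Without replicate 1 or replicate 3 all 24 genes were still called higher, at medians of 0.95 and 0.96.

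Of the plasma cell genes, 3 of 10 were higher (30%, against 22.5% of all genes) and 1 was lower. Irf4, a transcription factor shared by activated B cells and plasma cells, rose by 0.61 (adjusted p = 3.79e-05), the secretory chaperone Mzb1 by 0.69 (4.34e-05) and Xbp1, a regulator of secretory capacity, by 0.39 (0.000547). Sdc1, the plasma cell surface proteoglycan CD138, fell by 0.29 (0.00953) on its brightest probe set, but another of its probe sets was called at 0.28 higher. Xbp1 had probe sets of both signs as well, with a second at -0.09 that was not called.

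MHC class II molecules present peptides to T helper cells on B cells, monocytes and dendritic cells. Of 17 measured genes of this pathway 15 were higher (88.2%, against 22.5% of all genes) and 1 was lower (5.88%, against 13.6%). The median was 0.79. H2-Oa, a chain of the modulator that restrains peptide loading, was at 8.05 to 8.89 (median 8.38) in control recovery against 6.52 to 7.92 (median 7.12) in control exposure, without overlap (1.21 ± 0.15, adjusted p = 8.19e-09). The loading catalyst genes H2-DMb2 and H2-DMa differed by 1.08 ± 0.17 and 0.89 ± 0.14. The presenting chain H2-Eb1 was at 11.11 to 11.69 (median 11.25) in control recovery and at 9.60 to 11.18 (median 10.26) in control exposure (0.97 ± 0.15, 1.27e-06), so that 6 of 7 recovery arrays lay above all exposure arrays. Ciita, the master regulator of the pathway, differed by 0.79. The exception was Lgmn, a lysosomal endopeptidase, at -0.44.

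Monocyte and macrophage markers were higher in 18 of 24 cases (75%, against 22.5% of all genes) and lower in 0, at a median of 0.41. Cybb, the gp91phox chain of the NADPH oxidase of phagocytes, was at 8.81 to 9.16 (median 9.09) in control recovery and at 7.35 to 8.37 (median 7.81) in control exposure (1.24 ± 0.13, 2.37-fold, adjusted p = 1.19e-10). A second probe set of Cybb gave 0.91, and the dimmest gave 0.03, not called. Csf1r, the receptor for the growth factor that sustains monocytes, was at 9.55 to 10.06 (median 9.76) in control recovery against 8.11 to 9.03 (median 8.80) in control exposure (1.07 ± 0.12, 3.03e-10), with 1 exposure array below the other 6. Mpeg1, a pore-forming protein of phagocytes, differed by 0.89 ± 0.11 and the lysosomal marker Cd68 by 0.88 ± 0.13, and like the genes before them neither overlapped between the groups.

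Within the same list, the myeloid transcription factor Irf8 differed by 0.76 and Tgfbi, a matrix protein, by 0.86. Cx3cr1, a chemokine receptor of patrolling monocytes, differed by 0.44. Ccr2, the receptor of classical monocytes, also gave 0.44 on its brightest probe set, with 0.73 on another and -0.41 on a dim one, all called. Cd14, the co-receptor for lipopolysaccharide, was at -0.28 and did not pass. The list mean was 7.79 to 8.06 (median 8.03) in control recovery and 7.16 to 7.79 (median 7.49) in control exposure, and 1 recovery array lay at the top of the exposure range.

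**Figure D3:**
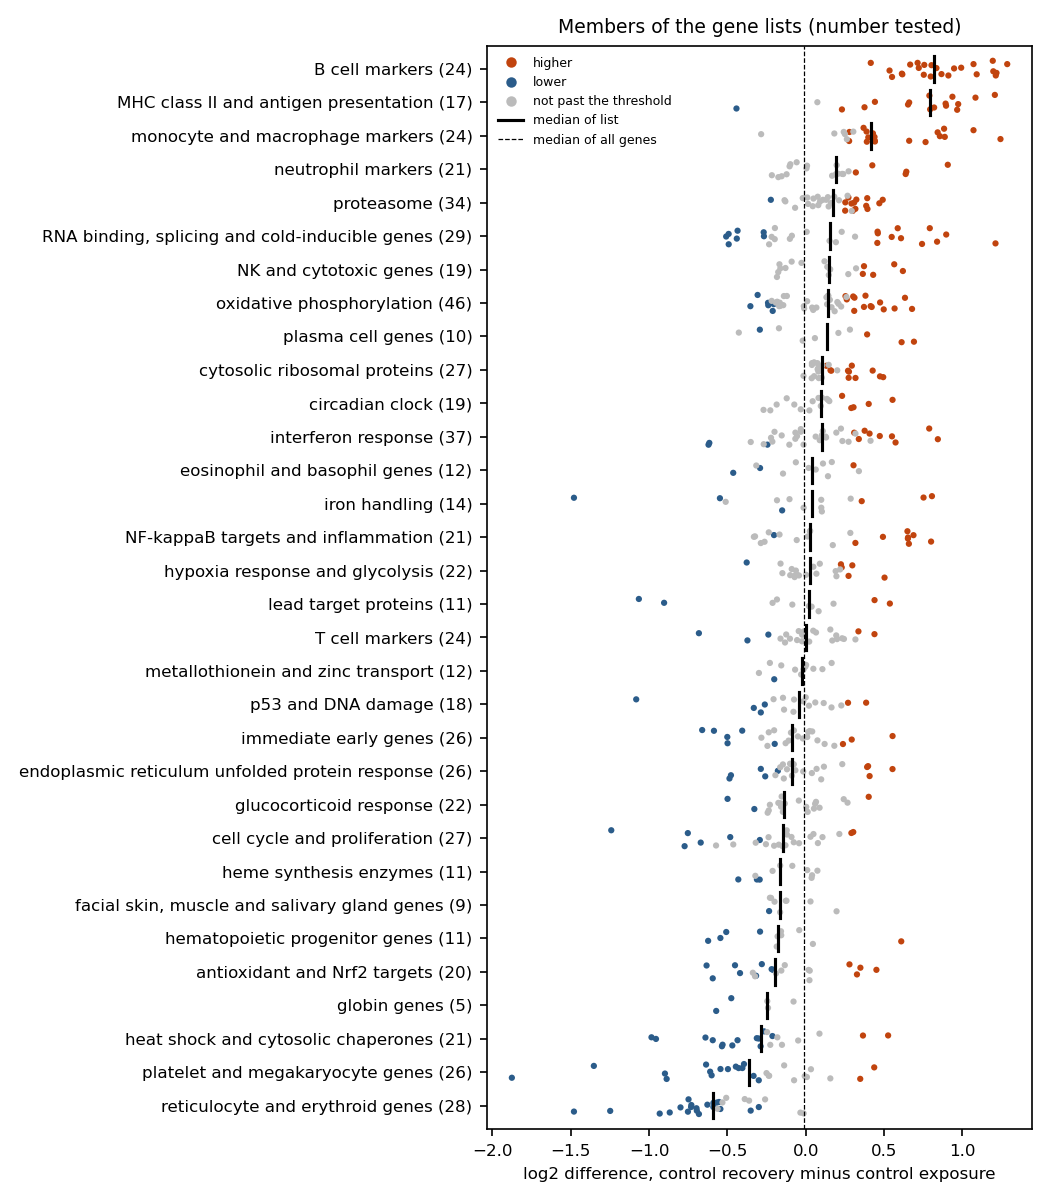
Log2 differences, control recovery minus control exposure (x axis), of the tested members of each gene list with 5 or more tested (rows), where red points are called higher, blue called lower and grey not past the threshold. Black bars mark list medians, 0.82 for B cell markers at the top and -0.59 for reticulocyte and erythroid genes at the bottom, and the dashed line the median of all genes, -0.012.

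Red cell precursor genes lay lower. Of 28 measured reticulocyte and erythroid genes, 20 were called lower and 0 higher, at a median of -0.59, where 13.6% of all genes were called lower. Gata1, the master transcription factor of red cells and megakaryocytes, was at 7.57 to 8.03 (median 7.85) in control recovery and at 8.25 to 8.69 (median 8.37) in control exposure (-0.59 ± 0.09, adjusted p = 1.19e-06). Epor, the erythropoietin receptor, was at 5.67 to 6.23 (median 5.97) in control recovery against 6.25 to 6.66 (median 6.57) in control exposure (-0.55 ± 0.10, 9.32e-06). Tal1, a partner of Gata1, was at 7.88 to 8.44 (median 8.0) in control recovery against 8.46 to 8.92 (median 8.55) in control exposure (-0.54 ± 0.12, 0.000282). None of these 3 regulators overlapped between the groups.

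Some genes of the red cell surface and skeleton fell further and varied more between mice. Tfrc, the transferrin receptor that brings iron into erythroid cells, was at 7.95 to 9.50 (median 8.62) in control recovery and at 8.79 to 11.14 (median 10.20) in control exposure (-1.48 ± 0.34, adjusted p = 0.000404), so that 5 of 7 recovery arrays lay below the exposure range. Epb42, a protein of the membrane skeleton, was at 4.52 to 6.06 (median 5.16) in control recovery against 5.81 to 7.51 (median 6.66) in control exposure (-1.25 ± 0.33, 0.00223). Aqp1, the water channel, differed by -0.68 ± 0.14, the ammonium channel subunit Rhag by -0.87 and Trim10, a gene of terminal red cell maturation, by -0.93. The bright genes Slc4a1, the anion exchanger, at -0.26, the enzyme gene Bpgm at -0.03 and Slc25a37, mitoferrin 1, at -0.01 did not pass. List means were 7.75 to 8.33 (median 8.03) in control recovery and 8.22 to 9.04 (median 8.73) in control exposure. Exposure replicates 1 and 3, which stood highest in B cell markers, were lowest here at 8.217 and 8.319, and without either of them 24 genes were called lower.

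The 250 bases before the first listed start are shown for Epor, Tal1 and Epb42, each an erythroid member with a GATA motif there. The sequences were read from RefSeq build GRCm38.p6 and are written 5′ to 3′ on the gene's strand. The GATA motif, AGATAA or its reverse complement TTATCT, is in capitals. The windows are chr9:21963577-21963826, minus strand, for Epor, chr4:115056176-115056425, plus strand, for Tal1 and chr2:121036878-121037127, minus strand, for Epb42, and each holds 1 match.
Epor: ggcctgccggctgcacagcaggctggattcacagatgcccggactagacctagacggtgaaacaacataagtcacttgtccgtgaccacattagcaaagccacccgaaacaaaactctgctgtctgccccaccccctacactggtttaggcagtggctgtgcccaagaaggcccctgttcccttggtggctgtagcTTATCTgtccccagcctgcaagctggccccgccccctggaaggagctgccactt
Tal1: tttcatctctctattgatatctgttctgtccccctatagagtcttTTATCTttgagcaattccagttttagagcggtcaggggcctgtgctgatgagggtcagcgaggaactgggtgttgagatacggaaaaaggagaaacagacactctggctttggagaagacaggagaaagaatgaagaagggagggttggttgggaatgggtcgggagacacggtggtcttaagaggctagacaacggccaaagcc
Epb42: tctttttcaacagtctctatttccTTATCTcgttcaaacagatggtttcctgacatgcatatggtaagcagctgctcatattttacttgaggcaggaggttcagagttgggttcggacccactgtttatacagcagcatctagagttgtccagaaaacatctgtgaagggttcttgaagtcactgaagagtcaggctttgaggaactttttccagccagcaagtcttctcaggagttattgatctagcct
Of the 28 tested erythroid genes 21 had such a window and 7 of these (33.3%) held the motif, against 10.3% of 27025 genes. It stood in 6 of 17 members called lower and in 1 of 4 others. A match of 6 letters is a description of the sequence and not a site.

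Most globin and heme genes were not called. Of 5 globin genes 2 were lower (40%, against 13.6% of all genes): Hbb-y, an embryonic beta-like globin, fell by 0.57 (adjusted p = 0.00641) and Hba-a2, an adult alpha globin, by 0.48 (0.00733), and the other 3 were not called, at -0.08 to -0.25. Hba-a2 was dim, at 3.49 to 3.86 in control recovery and 3.70 to 4.53 in control exposure, where the filter's level was 4.14. Hba-a1 did not pass the filter, and Hbb-b1, Hbb-bs and Hbb-bt were not on the array by these names. Globin transcripts were removed before labelling, so their levels are what depletion left. In heme synthesis 3 of 11 genes were lower (27.3%) and 4 had positive differences of up to 0.07. Those lower were the enzyme Uros by 0.29 (0.00125), the glycine importer Slc25a38 by 0.31 (0.00495) and the mitochondrial transporter Abcb10 by 0.43 (0.00795). Alas2, the first enzyme of the pathway in red cells, was at 0.01 and Alad at -0.21, neither past the threshold. Iron genes went both ways, 3 of 14 higher and 3 lower (21.4% each). Slc25a28, mitoferrin 2, rose by 0.75 (1.65e-07) and the iron sensor Hfe by 0.81 (7.57e-07), and the iron regulatory protein genes parted, Aco1 rising by 0.36 (0.0272) and Ireb2 falling by 0.55 (0.000391). Fth1, the ferritin heavy chain, fell by 0.15 (0.00303) at levels of 13.26 to 13.42 in control recovery and 13.45 to 13.54 in control exposure, where the highest value on any array was 14.1. A second Fth1 probe set, nearly as bright, gave -0.06 and was not called. Without exposure replicate 1 the count of lower iron genes was 5.

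Platelet genes were lower in 15 of 26 cases (57.7%, against 13.6% of all genes) and higher in 2 (7.69%, against 22.5%), at a median of -0.36. Beside P2ry12, Thbs1, a granule adhesion protein, was at 6.50 to 7.33 (median 6.71) in control recovery and at 7.61 to 8.82 (median 8.24) in control exposure (-1.35 ± 0.18, adjusted p = 2.29e-08). Rgs18, a brake on platelet receptor signalling, was at 10.40 to 11.02 (median 10.80) in control recovery against 11.22 to 11.91 (median 11.60) in control exposure (-0.90 ± 0.15, 5.59e-06), and Cd9, a tetraspanin, at 10.89 to 11.69 (median 11.33) against 11.83 to 12.55 (median 12.23) (-0.89 ± 0.15, 2.17e-06). In each of these the groups did not overlap.

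The fall did not extend over the whole list. The ADP receptor gene P2ry1 fell by 0.64 and the ATP receptor gene P2rx1 by 0.54, whereas Itgb3, the integrin beta 3 chain, was 0.35 higher without overlap and Vwf, von Willebrand factor, 0.44 higher. The chemokine gene Pf4 at -0.14, Itga2b at 0.16 and the platelet tubulin Tubb1 at -0.23 did not pass. The list mean was 9.22 to 9.79 (median 9.52) in control recovery and 9.68 to 10.2 (median 9.89) in control exposure. With the 3′ minus 5′ measure as a covariate, 5 of the 26 genes were called lower and 2 higher, and P2ry12 differed by -1.32 (adjusted p = 6.95e-05).

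**Figure D4:**
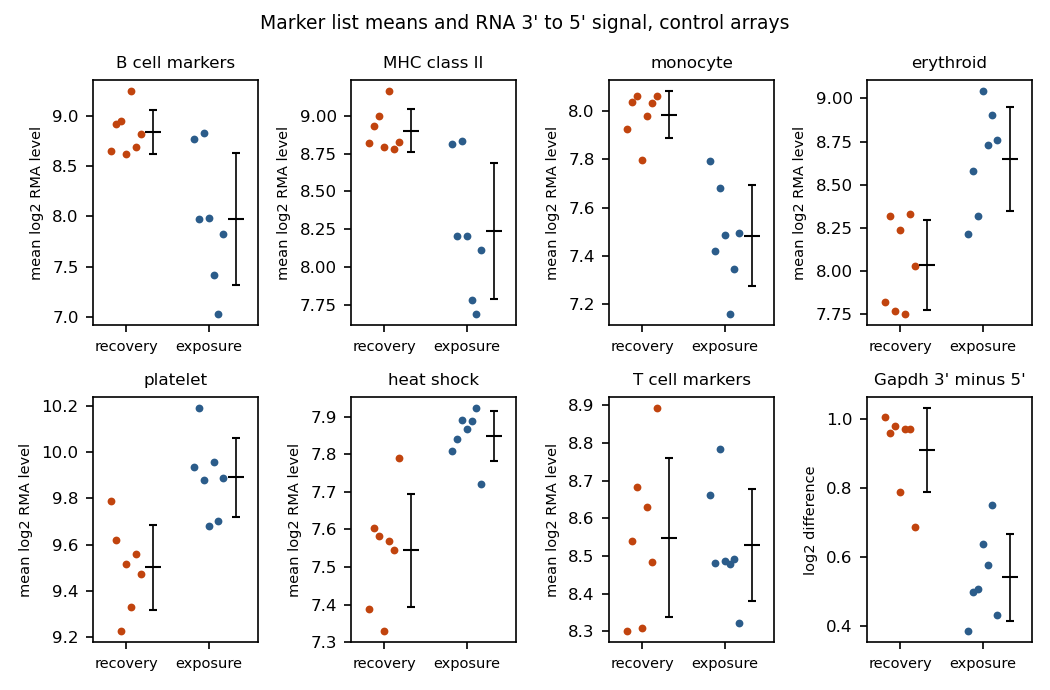
Mean log2 RMA level of the tested members of 7 lists, and the Gapdh 3′ minus 5′ signal, in each of 7 control recovery arrays (left, red) and 7 control exposure arrays (right, blue), with mean ± SD. B cell and MHC class II means of 2 exposure arrays reach the recovery range, T cell means overlap throughout, and the Gapdh measure is 0.686 to 1.01 in recovery against 0.386 to 0.752 in exposure.

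T cells, NK cells and granulocytes moved little. Of 24 T cell markers 2 were higher (8.33%, against 22.5% of all genes) and 3 lower (12.5%, against 13.6%), and the median was 0. Trat1, an adaptor of the T cell receptor complex, was at 5.57 to 6.30 (median 5.86) in control recovery against 6.37 to 6.77 (median 6.60) in control exposure, without overlap (-0.68 ± 0.11, adjusted p = 1.45e-06). Skap1, another adaptor, differed by 0.44 on its bright probe set and by -0.31 on a dim one, both called, Thy1 by 0.34, the co-stimulatory receptor Cd28 by -0.37 and the kinase gene Txk by -0.24. A second probe set of Cd28 gave 0.03 and was not called. Cd3e at 0.20, Cd4 at 0.23 and Cd8a at -0.04 did not pass. Without recovery replicate 1 or exposure replicate 3, 6 T cell genes were higher.

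Among NK and cytotoxic genes 5 of 19 (26.3%) were higher and 0 lower, and among neutrophil markers 5 of 21 (23.8%) were higher, both near the 22.5% of all genes. Ctsw, a cathepsin of cytotoxic cells, was at 8.70 to 9.13 (median 8.81) in control recovery against 7.92 to 8.70 (median 8.36) in control exposure (0.62 ± 0.12, adjusted p = 1.87e-05). The chemokine gene Ccl5 rose by 0.56 (0.000796), Nkg7 by 0.43 (0.00645), the receptor gene Klrd1 by 0.37 (0.0136) and granzyme A, Gzma, by 0.36 (0.0261), while perforin, Prf1, was at -0.03. The neutrophil genes called were the gelatinase Mmp9 and the surface marker Cd177 by 0.64 each, the chitinase-like Chil3 by 0.91, the histone deiminase Padi4 by 0.32 and the growth factor receptor Csf3r by 0.42. S100a8 at 0.20 and S100a9 at 0.23 did not pass. Only 3 neutrophil genes were called without any 1 of recovery replicates 1, 2 and 5 and exposure replicates 4 and 5, and 3 NK genes without recovery replicate 3. Of 12 eosinophil and basophil genes 1 was higher (8.33%, against 22.5% of all genes) and 2 lower (16.7%, against 13.6%). Il5ra rose by 0.30 while Gata2 fell by 0.29 and the histamine-forming enzyme Hdc by 0.46.

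Heat shock genes encode chaperones that fold proteins and respond to heat and other stress. Of 21, 13 were lower (61.9%, against 13.6% of all genes) and 2 higher (9.52%, against 22.5%), at a median of -0.29. Dnajb4, an Hsp40 co-chaperone, was at 5.83 to 6.50 (median 6.31) in control recovery and at 7.05 to 7.27 (median 7.20) in control exposure, without overlap (-0.96 ± 0.13, adjusted p = 2.6e-08). A second probe set gave -0.61 and the dimmest 0.15, the last not called. Hspa1b, an inducible Hsp70, was at 2.87 to 3.30 (median 3.21) in control recovery against 3.71 to 4.62 (median 4.17) in control exposure (-0.98 ± 0.23, 0.000522). All of its control values were dim, 1 recovery array stood below the other 6, and the probe set may also read the near-identical Hspa1a.

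Hsph1, an Hsp110 that exchanges nucleotide on Hsp70, was at 7.39 to 8.14 (median 7.62) in control recovery against 8.04 to 8.48 (median 8.33) in control exposure (-0.64 ± 0.14, adjusted p = 0.000204). Dnaja1, an Hsp40, differed by -0.53 ± 0.12 (0.000521) and Cacybp, a protein that binds Hsp90 co-chaperones, by -0.53 ± 0.11 (8.92e-05). In each of these 3 genes 6 of 7 recovery arrays lay below the exposure range. Hspa4, another Hsp110, at 0.53 and the Hsp90 co-chaperone Cdc37 at 0.37 were the 2 called higher, and the constitutive Hspa8 at -0.15 and Dnajb1 at -0.23 did not pass. List means were 7.33 to 7.79 in control recovery and 7.72 to 7.92 in control exposure.

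For Hspa1b, Hsph1 and Dnaja1 the 250 bases before the first listed start are shown, from the same RefSeq build and written in the same way, with the paired heat shock element, GAANNTTC or TTCNNGAA, in capitals. Both forms read the same on either strand. The genes shown are all among the list members that hold the motif. The windows are chr17:34959239-34959488, minus strand, for Hspa1b, chr5:149636337-149636586, minus strand, for Hsph1 and chr4:40722218-40722467, plus strand, for Dnaja1.
Hspa1b: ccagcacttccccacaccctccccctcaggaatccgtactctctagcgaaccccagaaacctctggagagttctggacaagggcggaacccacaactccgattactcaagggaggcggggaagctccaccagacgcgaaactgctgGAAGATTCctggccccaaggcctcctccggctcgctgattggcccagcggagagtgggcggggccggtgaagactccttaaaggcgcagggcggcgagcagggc
Hsph1: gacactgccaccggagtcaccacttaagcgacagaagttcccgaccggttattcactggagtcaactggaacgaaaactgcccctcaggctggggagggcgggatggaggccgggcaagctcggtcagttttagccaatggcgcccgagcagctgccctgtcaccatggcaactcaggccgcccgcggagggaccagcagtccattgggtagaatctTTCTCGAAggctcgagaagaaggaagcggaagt
Dnaja1: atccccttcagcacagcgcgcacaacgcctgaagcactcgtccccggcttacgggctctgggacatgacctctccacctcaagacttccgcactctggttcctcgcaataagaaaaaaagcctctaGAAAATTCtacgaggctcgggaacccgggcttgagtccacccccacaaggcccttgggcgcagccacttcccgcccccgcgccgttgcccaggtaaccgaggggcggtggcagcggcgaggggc
Of 18 members with a window 8 (44.4%) held this motif, against 12.9% of 27025 genes. It stood in 5 of 11 members called lower and in 3 of 7 others, so within the list it was about as frequent in either set.

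The unfolded protein response of the endoplasmic reticulum had 4 of 26 genes higher (15.4%, against 22.5% of all genes) and 5 lower (19.2%, against 13.6%). Its sensors Atf6 and Ern1 rose by 0.55 (adjusted p = 3.07e-06) and 0.40 (0.00104), and Sel1l, of the degradation complex, by 0.41 (3.38e-05). Dimmer probe sets of Atf6 and Ern1 gave -0.05 and -0.14, neither called, and 1 dim probe set of Sel1l was called at -0.26. Atf4, the transcription factor of the integrated stress response, fell by 0.49 (0.000579), the Hsp40 Dnajb9 by 0.48 (0.000699), Edem1 by 0.29, Sdf2l1 by 0.26 and Sec61b by 0.18. The chaperone Hspa5 was at 0.07 and did not pass. The count of lower genes was 3 without any 1 of recovery replicates 3, 4 and 5 and exposure replicates 5 and 7, and 2 without exposure replicate 3.

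Immediate early genes are those that cells switch on within minutes of a stimulus. Of 26, 6 were lower (23.1%, against 13.6% of all genes) and 3 higher (11.5%, against 22.5%). Fos was at 5.88 to 6.75 (median 6.16) in control recovery and at 5.97 to 7.85 (median 6.77) in control exposure, with wide overlap (-0.66 ± 0.21, adjusted p = 0.0104). Ppp1r15a fell by 0.59, Klf6 by 0.50, the phosphatase gene Dusp1 by 0.50, the orphan receptor gene Nr4a2 by 0.41 and Dusp2 by 0.20. Mcl1, a survival factor, rose by 0.55 (4.43e-06), with 1 of its 5 other probe sets called at -0.35. Egr1 rose by 0.29 and Ier2 by 0.24, while Jun at 0.01 and Junb at -0.28 did not pass. With the 3′ minus 5′ covariate Fos, Dusp1, Ppp1r15a, Dusp2 and Egr1 were no longer called. Without exposure replicate 7, 3 genes of the list were lower.

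Of 19 circadian clock genes 5 were higher (26.3%, near the 22.5% of all genes) and 0 lower. Per1, a clock repressor that glucocorticoids also induce, was at 5.95 to 6.19 (median 6.05) in control recovery and at 5.46 to 5.94 (median 5.61) in control exposure, without overlap (0.40 ± 0.09, adjusted p = 0.000493). The kinase gene Csnk1e rose by 0.55 (0.000128), again without overlap, although its 2 dimmer probe sets gave -0.05 and -0.15 and were not called. The output genes Dbp and Tef rose by 0.30 and 0.23 and Clock by 0.29. Dimmer probe sets gave 0.13 for Dbp and 0.02 and -0.08 for Clock, none of them called. Arntl at -0.23, Nr1d1 at -0.12 and Per2 at 0.14 did not pass. Of 22 glucocorticoid response genes 1 was higher (4.55%, against 22.5% of all genes) and 2 lower (9.09%, against 13.6%). Per1 rose, Dusp1 and Sgk1 (-0.33) fell, and Fkbp5 at 0.05 and Tsc22d3 at -0.15 did not pass. Without exposure replicate 7 no glucocorticoid gene was called lower, and without recovery replicate 4, 3 were higher. The hour of bleeding is not given in the sources used here.

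NF-kappaB targets were higher in 8 of 21 cases (38.1%, against 22.5% of all genes) and lower in 1 (4.76%, against 13.6%). Nfkbie, an inhibitor of the pathway, rose by 0.80 (adjusted p = 9.9e-06), the adaptor Traf1 by 0.69 (1.78e-06), the subunit Relb by 0.66 (1.03e-05), the adhesion receptor Icam1 by 0.65 (3.02e-07), Il18 by 0.65 (1.55e-06), the activation marker Cd83 by 0.65 (0.00011), Tnip1 by 0.49 (6.85e-05) and Birc3 by 0.32 (0.018). Icam1, Traf1 and Relb did not overlap between the groups. Tnf fell by 0.20 (0.0368), and Nfkbia at 0.01 and Il1b at -0.33 did not pass. The count of lower genes depended on scaling, with 6 lower after a further quantile normalization, and it was 3 without exposure replicate 6.

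Interferon response genes were higher in 9 of 37 cases (24.3%) and lower in 3 (8.11%), with a median of 0.10, where 22.5% of all genes were higher and 13.6% lower. Ly6e rose by 0.79 (adjusted p = 2.04e-05), Ifi35 by 0.55 (3.93e-05) and Dhx58, a relative of the RNA sensor RIG-I, by 0.47 (3.16e-05) without overlap. Irgm2, a GTPase of interferon-gamma responses, was at 5.13 to 6.09 (median 5.88) in control recovery against 6.08 to 6.57 (median 6.41) in control exposure (-0.62 ± 0.13, 0.000175). After a further quantile normalization the split was 6 higher and 5 lower.

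Cell division genes were lower in 6 of 27 cases (22.2%, against 13.6% of all genes) and higher in 2 (7.41%, against 22.5%). Rrm2, a subunit of ribonucleotide reductase, was at 5.46 to 6.83 (median 6.13) in control recovery and at 6.79 to 7.99 (median 7.37) in control exposure (-1.24 ± 0.23, adjusted p = 1.68e-05), so that 6 of 7 recovery arrays lay below all exposure arrays. Birc5, survivin, fell by 0.77, the ubiquitin-conjugating enzyme gene Ube2c by 0.75, Ccnb2 by 0.67, Cdk1 by 0.48 and Top2a by 0.29. Cdk1 was dim, at 3.16 to 3.95 in control recovery and 3.91 to 4.33 in control exposure, where the filter's level was 4.14. The replication licensing genes Mcm5 and Mcm7 rose by 0.29 and 0.30. Of 18 p53 and DNA damage genes, 4 were lower (22.2%, against 13.6% of all genes) and 2 higher (11.1%, against 22.5%). Gadd45a, Mdm2 (-0.33), Phlda3 (-0.26) and Bbc3 (-0.29) fell, Ddb2 (0.39) and Zmat3 (0.27) rose, and Cdkn1a at -0.07 did not pass. The higher calls depended on single arrays: 0 cell division genes were higher without exposure replicate 5 or 7, and 0 of the p53 genes without any 1 of recovery replicates 3 and 7 and exposure replicates 5 and 7.

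Progenitor genes shared members with the erythroid list. Of 11, 4 were lower (36.4%, against 13.6% of all genes) and 1 higher (9.09%, against 22.5%). Lmo2 fell by 0.62 (adjusted p = 0.00205), Tal1 by 0.54, Sox4 by 0.51 (0.00166) and Gata2 by 0.29 (0.0112). Lyl1, a relative of Tal1, was instead at 7.98 to 8.43 (median 8.08) in control recovery against 7.20 to 7.84 (median 7.49) in control exposure (0.61 ± 0.11, 1.28e-05). Lyl1 did not overlap between the groups. Sox4 had another, dim probe set called at 0.27.

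Most genes of the ribosome, the proteasome and oxidative phosphorylation were not called, and small positive differences were the more frequent. Cytosolic ribosomal protein genes were higher in 11 of 27 cases (40.7%, against 22.5% of all genes) and lower in 0, at a median of 0.11, among them Rpl35 at 0.32 ± 0.07 (adjusted p = 0.000151) and Rpsa at 0.43 ± 0.11 (0.00188). Many of these genes have processed pseudogenes, whose transcripts a probe set may also read. Proteasome genes were higher in 13 of 34 cases (38.2%) and lower in 1, with Psmc2 at 0.47 ± 0.09 (4.67e-05) and Psmd3 at 0.39 ± 0.08 (0.000119). Oxidative phosphorylation genes were higher in 14 of 46 cases (30.4%) and lower in 6 (13.0%, against 13.6% of all genes), at a median of 0.14. Ndufv1 and Ndufs7, of the electron-input arm of complex I, differed by 0.68 ± 0.13 and 0.63 ± 0.11, Sdha of complex II by 0.50 ± 0.09 and Atp5d of the ATP synthase by 0.57 ± 0.10. In contrast Cox6c at -0.35 and Ndufa4 at -0.31 were lower without overlap. After cyclic loess the oxidative phosphorylation count was 15 higher and 13 lower, and without exposure replicate 6 the lower count was 3. Leaving out single arrays moved the ribosomal count to 6 (recovery replicate 3) or 7 (recovery or exposure replicate 7), and the proteasome count to 7 (recovery replicate 7) or 8 (recovery replicates 3 and 5, exposure replicates 5, 6 and 7).

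RNA-binding and splicing genes parted, with 11 of 29 higher (37.9%, against 22.5% of all genes) and 7 lower (24.1%, against 13.6%). Neat1, the long RNA that builds paraspeckles, was at 8.74 to 9.24 (median 8.86) in control recovery and at 7.72 to 8.52 (median 7.91) in control exposure, without overlap (0.90 ± 0.10, adjusted p = 1.01e-09). A dimmer probe set of Neat1 gave -0.18 and was not called. Hnrnpa1, a splicing repressor, differed by 0.74 ± 0.11 (2.55e-07). Sfpq, a paraspeckle protein, gave 0.79 on its brightest probe set and -0.59 on another of nearly the same level, and Snrnp70 gave 0.84 and, on a dimmer probe set, -0.42, all of them called. Srsf6 differed by 0.46 ± 0.07 on its brightest probe set and by -0.46 on a dimmer one, both called, and the SR protein genes Srsf2, Srsf10 and Srsf3 were lower by 0.43, 0.49 and 0.27. With the 3′ minus 5′ covariate 12 genes of the list were higher and 0 lower.

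Antioxidant genes were lower in 8 of 20 cases (40%, against 13.6% of all genes) and higher in 4 (20%, near the 22.5% of all genes). Gsr, glutathione reductase, fell by 0.63 ± 0.12 (adjusted p = 1.63e-05), and its dimmer probe set gave -0.96. Nqo1 fell by 0.59, the glutathione synthesis genes Gclm and Gclc by 0.45 and 0.32 and catalase, Cat, by 0.42. Gstm1 rose by 0.45 (3.05e-05), Gstp1 by 0.35 (0.00103) and Keap1, which restrains Nrf2, by 0.33 (0.00125). A dimmer probe set of Keap1 gave -0.27 and was not called. With the 3′ minus 5′ covariate the counts were 1 lower and 3 higher. The lower count was 3 without recovery replicate 3, 4 without recovery replicate 5 or exposure replicate 7, and 5 without recovery replicate 7 or exposure replicate 4 or 5.

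Of 11 genes whose proteins Pb is known to act on, 2 were higher and 2 lower (18.2% each), together near the 36.1% of all genes. Beside Gch1, the erythrocyte nucleotidase gene Nt5c3 was at 8.67 to 9.74 (median 9.24) in control recovery and at 9.70 to 10.69 (median 10.19) in control exposure (-0.90 ± 0.23, adjusted p = 0.00111), the calcium pump Atp2b1 differed by 0.54 ± 0.09 (7.77e-06) and the protein kinase C gene Prkcb by 0.44 ± 0.11 (0.00179). Of 12 metallothionein and zinc transport genes only the exporter Slc30a1 was called, at -0.20 (0.0498), and Mt1 at -0.23 (0.0575) was not. Hypoxia and glycolysis genes were higher in 5 of 22 cases (22.7%, against 22.5% of all genes), among them the phosphofructokinase gene Pfkl by 0.50 (0.000881), the glucose transporter gene Slc2a1 by 0.27, Pfkp by 0.30, Hk2 by 0.23 and Aldoa by 0.22, and Ndrg1 fell by 0.38. The 5 higher calls dropped to between 1 and 3 without any 1 of recovery replicates 2, 3 and 7 and exposure replicates 2, 4, 5 and 7, the 1 being without exposure replicate 5. The single histone gene measured, H3f3b, was at 0.16 (0.224), and of the 9 facial tissue genes the matrix gene Sparc fell by 0.23 (0.0324).

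The change between collections can be set beside that of the Pb-treated mice, which shares no arrays with it but was measured at the same times. Between recovery and exposure 5551 genes (44.1%) were called in low-Pb mice and 6189 (49.2%) in high-Pb mice, from more arrays. Low-Pb calls were 26.2% higher and 17.9% lower, and high-Pb calls 29.3% higher and 19.8% lower. Of the 2833 genes higher in controls, 2418 were higher in low-Pb mice (85.4% of the control genes and 73.3% of the low-Pb genes) and 2616 in high-Pb mice (92.3% and 70.8%). Of the 1710 lower in controls, 1084 were lower in low-Pb mice (63.4% and 48.2%) and 1264 in high-Pb mice (73.9% and 50.7%). Across genes, which are not independent, the control change correlated at 0.837 with the low-Pb and 0.899 with the high-Pb change, and regression of these on the control change had slopes of 0.686 and 0.808. The plot of the 30 named genes in 3 dose groups shows genes picked for a large control change, so the size of the other changes beside it is a description. Lists differed in their medians. B cell markers were at 0.82 in control, 0.45 in low-Pb and 0.77 in high-Pb mice, erythroid genes at -0.59, -0.63 and -0.46, heat shock genes at -0.29, -0.07 and -0.47, and platelet genes at -0.36, 0.09 and -0.02. The difference of these medians between dose groups was not tested. In the main tests of single genes no platelet, B cell or erythroid member was called as changing differently in controls. The erythroid gene Gata1 lay just outside the threshold, and a lack of calls does not show that the changes were equal.

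By the test of the difference itself, the genes that changed differently in controls numbered 3 (0.0238%) against low-Pb mice, 1 of them with the control change above the low-Pb change (0.00794%) and 2 below it (0.0159%), and 1 (0.00794%) against high-Pb mice. The count against low-Pb mice depended on the processing: it was 78 after a further quantile normalization, 45 after cyclic loess or with a replicate block, 716 with array weights and 0 with cell marker covariates. Slc12a2, a sodium, potassium and chloride cotransporter, was at 5.85 to 6.85 (median 6.47) in control recovery and at 5.42 to 6.06 (median 5.72) in control exposure (0.64 ± 0.12), but it changed by -0.25 ± 0.08 in low-Pb and -0.05 ± 0.09 in high-Pb mice. Its control change exceeded the low-Pb change by 0.90 ± 0.15 (adjusted p = 0.000829), and the excess of 0.70 ± 0.15 over the high-Pb change did not pass (0.105). The death-associated kinase gene Dapk1 was at 5.59 to 6.13 in control recovery against 6.37 to 6.72 in control exposure, a change of -0.65 ± 0.10 against -0.05 ± 0.07 in low-Pb mice (difference -0.60 ± 0.12, adjusted p = 0.0149). Cdkn2b, an inhibitor of cyclin-dependent kinases, was at 4.05 to 4.47 in control recovery against 4.51 to 4.96 in control exposure, a change of -0.55 ± 0.10 against 0.04 ± 0.07 in low-Pb mice (difference -0.60 ± 0.12, 0.0217).

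Hspa1b fell by 0.98 in controls on the log2 scale, and its change in high-Pb mice was -2.78. The difference of 1.80 ± 0.28 between these changes had an adjusted p of 0.000176. All 7 control recovery values and 3 of 7 control exposure values of this probe set lay under the level of 4.14 used in the filter, so the size of the control change, and of the difference built on it, is poorly known. Next in order against low-Pb mice, and not past the threshold, were 8 genes at 0.0514, among them the channel gene Trpc1 (-0.81), Hfe (0.68) and Gata1 (-0.50). Against high-Pb mice these were Slc12a2, the anticoagulant receptor gene Thbd (0.62, 0.148), the tubulin gene Tubb6 (0.52, 0.433) and Klf10 (0.52, 0.594). The count against low-Pb mice was not stable when single control arrays were left out. It was 133 without recovery replicate 1, 26 without recovery replicate 4, 33, 52 and 36 without exposure replicates 1, 3 and 4, 5 without recovery replicate 2 or exposure replicate 7, and 1 without recovery replicate 3, recovery replicate 5 or exposure replicate 2. Against high-Pb mice it was 2 without recovery replicate 1, recovery replicate 5 or exposure replicate 4, and otherwise 1.

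**Figure D5:**
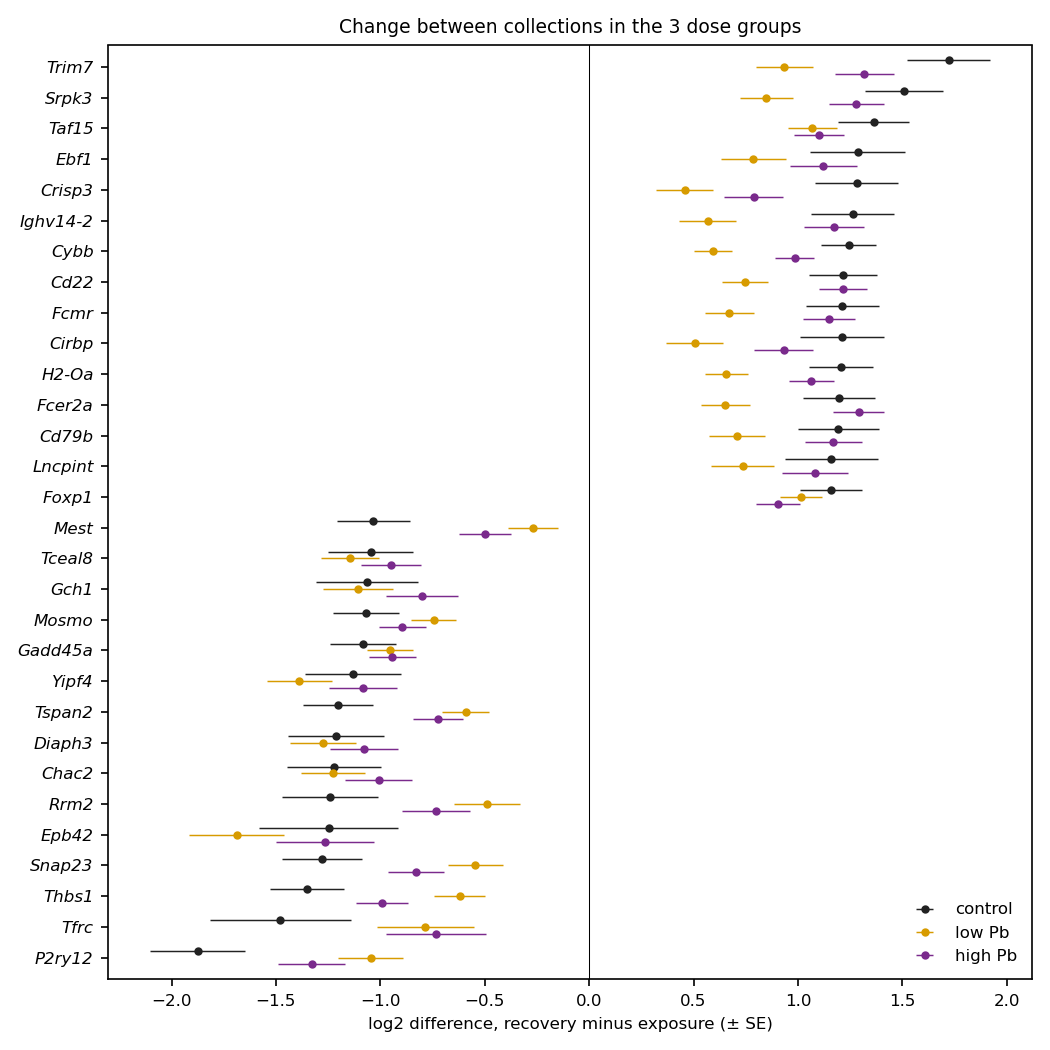
Log2 difference between the collections, recovery minus exposure (x axis, ± SE), of the 15 highest and 15 lowest control genes, in control, low-Pb and high-Pb mice. All 30 genes point the same way in the 3 dose groups.

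Probe sets of the same gene did not always move together. Of the 5191 genes with 2 or more probe sets past the filter, 301 had probe sets called in opposite directions, and in 127 of these the higher probe set was the dimmer. Mtss1, a regulator of the actin cytoskeleton, gave 1.81 on a probe set with a mean level of 3.94 and -0.62 on one with a mean level of 6.20, and Tmod3, which caps actin filaments, gave 1.27 at 3.77 and -0.65 at 8.53. These genes were picked after their values were seen. Among genes called higher, 37.1% of the second-brightest probe sets were called higher and 4.34% lower. Among genes called lower, 42.5% were called lower and 7.17% higher. For uncalled genes the shares were 16.3% higher and 14.8% lower.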

How the data were processed

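Peripheral blood RNA of female Balb/c mice was measured on expression arrays with Affymetrix probe set names, whose deposited log2 values were made by the authors with RMA, per the submitters' processing notes. Which program ran it is not given in the sources used here. Values ran from 0.41 to 14.1. Of 45101 probe sets, 64 were array controls, 34945 had 1 gene symbol in the platform annotation, 932 several and 9160 none. Of the 1-symbol probe sets, 34741 matched the RefSeq gene table by gene identifier, and 0 symbols differed. No further normalization was applied. Probe sets above 4.14, the median of all values, in at least 7 arrays were kept (21044), and the brightest represented each gene, which left 12588 of 18193 genes.

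Groups came from the array titles. All 72 arrays were fitted as 6 group means with limma 3.58.1 in R 4.3.3 (66 residual degrees of freedom), and Benjamini-Hochberg adjustment of p ran over all genes. The number of arrays limits the precision. On simulated data for this comparison, over 12588 genes, 79 of 100 genes changed by 0.5 and 100 of 100 changed by 1 (log2) were recovered, with 10 false calls. Only these genes were changed there, with noise independent between genes, whereas 4543 genes were called in the real data. The simulated counts therefore need not hold for the real comparison. Array measures were compared with exact permutation tests over 3432 splits of the 14 arrays, the smallest possible p being 0.000583. The comparison, its members and the 33 gene lists were chosen with earlier results of these data known, and 26 genes stood in more than 1 list. Named genes were the 15 highest and 15 lowest called differences (clone names and gene models left out), the 5 of smallest p in each test of a difference between dose groups, and for each list up to 4 members of smallest p and all called members where these were 10 or fewer. Other members named for their role, called or not, were chosen after their values were seen. Alternatives were other scalings, filters, probe set rules, covariates, array weights, the 14 control arrays alone and leaving out each control array. Replicate numbers showed no clear pairing of the groups and are treated in the closing section.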

Additional observations from a re-analysis of the deposited data

Results flagged for a closer look

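In 17 of 438 groups of 7 values looked at (a named gene, a list mean or an array measure in 1 control group), 1 array stood apart from the other 6 by Dixon's ratio, the gap to the nearest array over the whole range. Chance gives about 5%, although values from the same array are not independent. Of the 17, 7 were in control recovery and 10 in control exposure.

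In control recovery Fcer2a had 1 high array at 9.96, with the others at 9.13 to 9.46 (ratio 0.612). The other recovery genes had 1 low array each: Hspa1b at 2.87 (others 3.13 to 3.30, ratio 0.602), Mpeg1 at 9.06 (9.30 to 9.43, 0.665), Xbp1 at 8.87 (9.26 to 9.50, 0.620), Sox4 at 4.99 (5.51 to 5.82, 0.623), Birc3 at 8.05 (8.49 to 8.79, 0.601) and Dnajb9 at 6.20 (6.77 to 7.19, 0.577). In control exposure the low arrays were at 8.11 for Csf1r (8.73 to 9.03, 0.671), 3.61 for Il5ra (4.01 to 4.30, 0.582), 5.97 for Icam1 (6.28 to 6.50, 0.589), 7.20 for Mdm2 (7.45 to 7.62, 0.598) and 7.38 for Ier2 (7.65 to 7.82, 0.609). High exposure arrays were at 5.96 for Rpl12 (5.16 to 5.42, 0.678), 13.54 for Fth1 (13.45 to 13.48, 0.630) and 6.88 for Sdf2l1 (6.37 to 6.55, 0.641). Of the list means, the eosinophil and basophil list had 1 high exposure array at 5.47 (4.90 to 5.09, 0.675) and the immediate early list 1 low exposure array at 7.10 (7.21 to 7.29, 0.579). Many of these flags shared an array and are not separate events. Recovery replicate 4 was the low array of Mpeg1, Xbp1, Sox4, Birc3 and Dnajb9. Exposure replicate 5 was that of Csf1r, Icam1, Ier2 and the immediate early list.

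The change between collections differed between dose groups for 4 genes by limma's test of the difference. Control minus low-Pb change was 0.90 for Slc12a2 (adjusted p = 0.000829), -0.60 for Dapk1 (0.0149) and -0.60 for Cdkn2b (0.0217), and control minus high-Pb change was 1.80 for Hspa1b (0.000176), whose control recovery values all lay under the filter's level of 4.14.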

How the results depend on the processing

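The count of genes differing between control recovery and control exposure (4543) lay between 3523 and 6756 under 14 of the 15 alternatives other than leaving out arrays, and dropped to 1156 (586 higher, 570 lower) with the cell marker list means as covariates; leaving out 1 control array gave 3790 to 5148. The count against low-Pb mice (3) was 45 with a replicate block over all arrays, 78 after quantile normalization, 45 after cyclic loess, 14 with a stricter filter, 9 with the mean of probe sets, 716 with array weights, 14 with the 18S covariate, 9 with the 3′ minus 5′ covariate and 0 with cell marker covariates, and 1 to 133 without 1 array. The count against high-Pb mice (1) was 2 after quantile normalization, cyclic loess or with the 3′ minus 5′ covariate, 3 with the 18S or hybridisation covariate, 6 with array weights or cell marker covariates, and 1 to 2 without 1 array. Why these counts moved was not tested. Replicate numbers showed no clear pairing of the control groups: same-numbered arrays correlated at -0.42 to 0.26 in their deviations, 3 of 7 pairs above 0.1. Only 1 recovery array matched its own number best. These correlations cannot tell whether mice were shared, and the labels do not say. With the replicate block 3523 genes were called in the 14 control arrays, against 3833 without it, and 4504 in all arrays.

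Of 179 named genes, 60 kept direction and side of the threshold with the cell marker covariates, 100 lost the call and 19 changed sign: Thbd (-0.0028), Klf10 (-0.0234), Aqp1 (0.21), Hbb-y (0.18), Urod (0.0460), Irf4 (-0.0172), Mzb1 (-0.11), Xbp1 (-0.0515), H2-Eb1 (-0.0275), Birc5 (0.0698), Phlda3 (0.0303), Slc39a4 (0.11), Slc39a1 (-0.0256), Slc2a1 (-0.0804), Prkcb (-0.0187), Mylpf (0.0547), Cd83 (-0.10), Birc3 (-0.15) and Ier2 (-0.0383). With the 3′ minus 5′ covariate 147 kept both and Txk changed sign (0.0272), and with the mean of probe sets 162 did and Sdc1 changed sign (0.0229). Of the 167 called, 135 kept the call without any 1 array. The other 32 had adjusted p-values of 0.0104 to 0.0498: Aco1, Aldoa, Bbc3, Birc3, Chil3, Csf3r, Dbp, Ddb2, Dusp1, Dusp2, Edem1, Fos, Gzma, Hk2, Ier2, Il5ra, Klf10, Klrd1, Mcm5, Mcm7, Padi4, Pfkp, Sdf2l1, Sec61b, Sgk1, Slc2a1, Slc30a1, Sparc, Tnf, Top2a, Txk and Zmat3. Without 1 array the uncalled differences of the hybridisation controls lay between -0.102 and 0.075 and of the spread of relative log expression between -0.0112 and 0.0166. Collection, age and the 3′ minus 5′ measure moved together with the groups, and collection and age cannot be told apart.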
